A study of Sus scrofa with 599 samples.

Results

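CPT1A, CPT1B, CPT2, ACADM, ACADVL, HADHA, HADHB and PDK4 belong to the mitochondrial oxidation of long-chain fatty acids and to the choice of fuel that goes with it. They were picked by symbol from the TPM (length-normalized transcript abundance) table of protein-coding genes (PCGs), and all 8 of the 8 symbols were found, among 21280 PCGs. None of the 8 makes ketone bodies, so the ketone body enzymes were described from a list of their own.

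Fatty acids that leave the lipid droplet by lipolysis are activated to acyl-CoA, carried into the mitochondrion by the carnitine shuttle and shortened by repeated rounds of dehydrogenation, hydration, dehydrogenation and thiolysis. The carnitine palmitoyltransferase at the outer membrane (CPT1A, the liver isoform, and CPT1B, the muscle isoform) is the gate of this route and is inhibited by malonyl-CoA, and CPT2 reforms the acyl-CoA inside. White adipose tissue (AT) mostly stores and releases fatty acids, and in mammals it is known for a low rate of oxidation compared with liver, heart or muscle. In fasting, pyruvate dehydrogenase kinase 4 (PDK4) switches off the pyruvate dehydrogenase complex, which spares glucose while fatty acids are burned or, in adipocytes, re-esterified.

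The libraries came from female Bama pigs, a miniature breed, aged 2 years. Control pigs ate a normal diet (NC), weight-gain pigs a high-fat diet for 22 weeks (WG), and weight-loss pigs were fed as the WG animals and then kept for 12 weeks at 10% of the caloric intake of controls (WL). WL pigs had thus eaten the high-fat diet too and were killed later than WG pigs, so diet and time since the start of the trial cannot be told apart. The animals were fasted before killing. The depots were greater omentum (GOM), mesenteric (MAD) and retroperitoneal (RAD) fat, which are visceral, and the upper layer of backfat (ULB), which is subcutaneous. The RNA-seq libraries of GOM, MAD, RAD and ULB numbered 9, 12, 12 and 5 in NC, 45, 36, 39 and 38 in WG, and 10 each in WL.

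The PCG counts of a library summed to 3337098 to 22939420, with a median of 16791659. In 40 libraries PCGs held under 88% of the summed TPM (65.6 to 87.9%), and in the other 196 they held 88.1 to 96.9%. The 40 included 7 of the 9 NC GOM libraries, 2 of 12 in NC MAD, 6 of 12 in NC RAD, 2 of 5 in NC ULB, and 6, 6, 2 and 3 of 10 in WL. Results are therefore given also over the 196 high-share libraries alone. The mitochondria-encoded genes took a median of 12.9 to 20.0% of TPM in the NC groups, 2.87 to 8.90% in WG and 1.43 to 1.94% in WL. TPM values of all nuclear genes carry this difference. The tests did not use TPM but counts scaled by the trimmed mean of M values. The 8 adipocyte markers ADIPOQ, PLIN1, CIDEC, LEP, FABP4, LIPE, PNPLA2 and GPD1 were above 0 in every library and summed to 3809 TPM or more.

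The genes lie on 6 autosomes of Sscrofa11.1. CPT1A (ENSSSCG00000012880) lies at chr2:4250642-4293914 on the plus strand, CPT1B (ENSSSCG00000022364) at chr5:155552-163536 on the plus strand and CPT2 (ENSSSCG00000003851) at chr6:159038129-159061327 on the minus strand. ACADVL (ENSSSCG00000017947), the very-long-chain acyl-CoA dehydrogenase, lies at chr12:52573521-52581755 on the plus strand, and ACADM (ENSSSCG00000003776), the medium-chain enzyme, at chr6:137541481-137575544 on the minus strand. PDK4 (ENSSSCG00000015334) lies at chr9:75246956-75260134 on the minus strand, inside the span of ASB4 on the other strand, and ACADVL overlaps the ends of DLG4 and DVL2. The authors quantified stranded reads with the strand set.

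HADHA (ENSSSCG00000008571, chr3:112753343-112797627, plus strand) and HADHB (ENSSSCG00000008569, chr3:112712894-112753121, minus strand) encode the alpha and beta subunits of the mitochondrial trifunctional protein, which carries out the last steps of each round on long chains. They start head to head. The 221 bases between the annotated starts are shown because both subunits are read from this stretch in opposite directions. The regions upstream of PDK4 and CPT1A are shown too. Of the genes studied, PDK4 had the highest transcript level, and CPT1A differed most often between diets in the tests below. Genomic sequence is from the RefSeq copy of Sscrofa11.1, 5′ to 3′ on the strand named, and the upstream stretches end at the base before the annotated start. Capitals mark matches, on either strand, to AGGTCA, the core letters bound by nuclear receptors, to GTAAACA, known from forkhead factors, to the GC box GGGCGG or to the CCAAT box.
HADHB to HADHA (chr3:112753122-112753342, plus strand): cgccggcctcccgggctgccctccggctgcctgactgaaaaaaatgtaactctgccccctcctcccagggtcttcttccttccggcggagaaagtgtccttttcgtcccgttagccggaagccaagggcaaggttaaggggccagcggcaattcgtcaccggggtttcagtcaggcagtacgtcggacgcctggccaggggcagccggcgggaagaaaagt
PDK4 upstream (chr9:75260135-75260384, minus strand): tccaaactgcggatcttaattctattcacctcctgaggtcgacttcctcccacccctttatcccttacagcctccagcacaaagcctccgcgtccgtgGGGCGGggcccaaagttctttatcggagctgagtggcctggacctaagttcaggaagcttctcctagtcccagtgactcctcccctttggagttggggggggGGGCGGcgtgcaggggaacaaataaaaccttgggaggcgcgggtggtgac
CPT1A upstream (chr2:4250392-4250641, plus strand): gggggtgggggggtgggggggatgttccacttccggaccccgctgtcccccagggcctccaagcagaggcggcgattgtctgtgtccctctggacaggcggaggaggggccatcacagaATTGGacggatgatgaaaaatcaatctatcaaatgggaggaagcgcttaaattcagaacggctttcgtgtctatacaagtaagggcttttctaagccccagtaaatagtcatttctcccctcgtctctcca

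The stretch between HADHB and HADHA had a GC content of 62.9% and held none of these letters. Of the 250 bases upstream of PDK4, 58.4% were G or C, and the GC box occurred 2 times. It occurred 3 times upstream of ACADM and 1 time upstream of ACADVL, and 45.9% of 19534 promoters of that length held it. CPT1A held 1 CCAAT (31.9% of promoters) and CPT2 1 AGGTCA (12.2%). The DR1 element, a direct repeat of AGGTCA with 1 base of any kind between the copies, was held by 0.0256% of promoters, and the longer receptor site TCAAGGTCA by 0.333%. The forkhead letters were held by 2.27% and the cyclic AMP response element TGACGTCA by 1.70%. None of these 4 was in any of the 8 windows on either strand. AGGTCA is contained in both the DR1 element and the longer receptor site.

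All 8 genes were expressed in every library, at levels that spanned more than an order of magnitude between genes. TPM corrects for transcript length, so levels can be set side by side. PDK4 had the highest level, with a median of 800 TPM over all libraries, and ranked 122 among PCGs by that level. ACADM followed at 248 TPM, HADHB at 184, HADHA at 113, ACADVL at 54.0, CPT1A at 43.9, CPT2 at 23.8 and CPT1B at 13.3 TPM. The transcripts of the gate were thus at a lower level than those of the trifunctional protein that lies downstream. Between the highest and the lowest of the 12 group means, CPT1A differed most, by 3.26-fold, and HADHA least, by 1.64-fold.

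**Figure D1:**
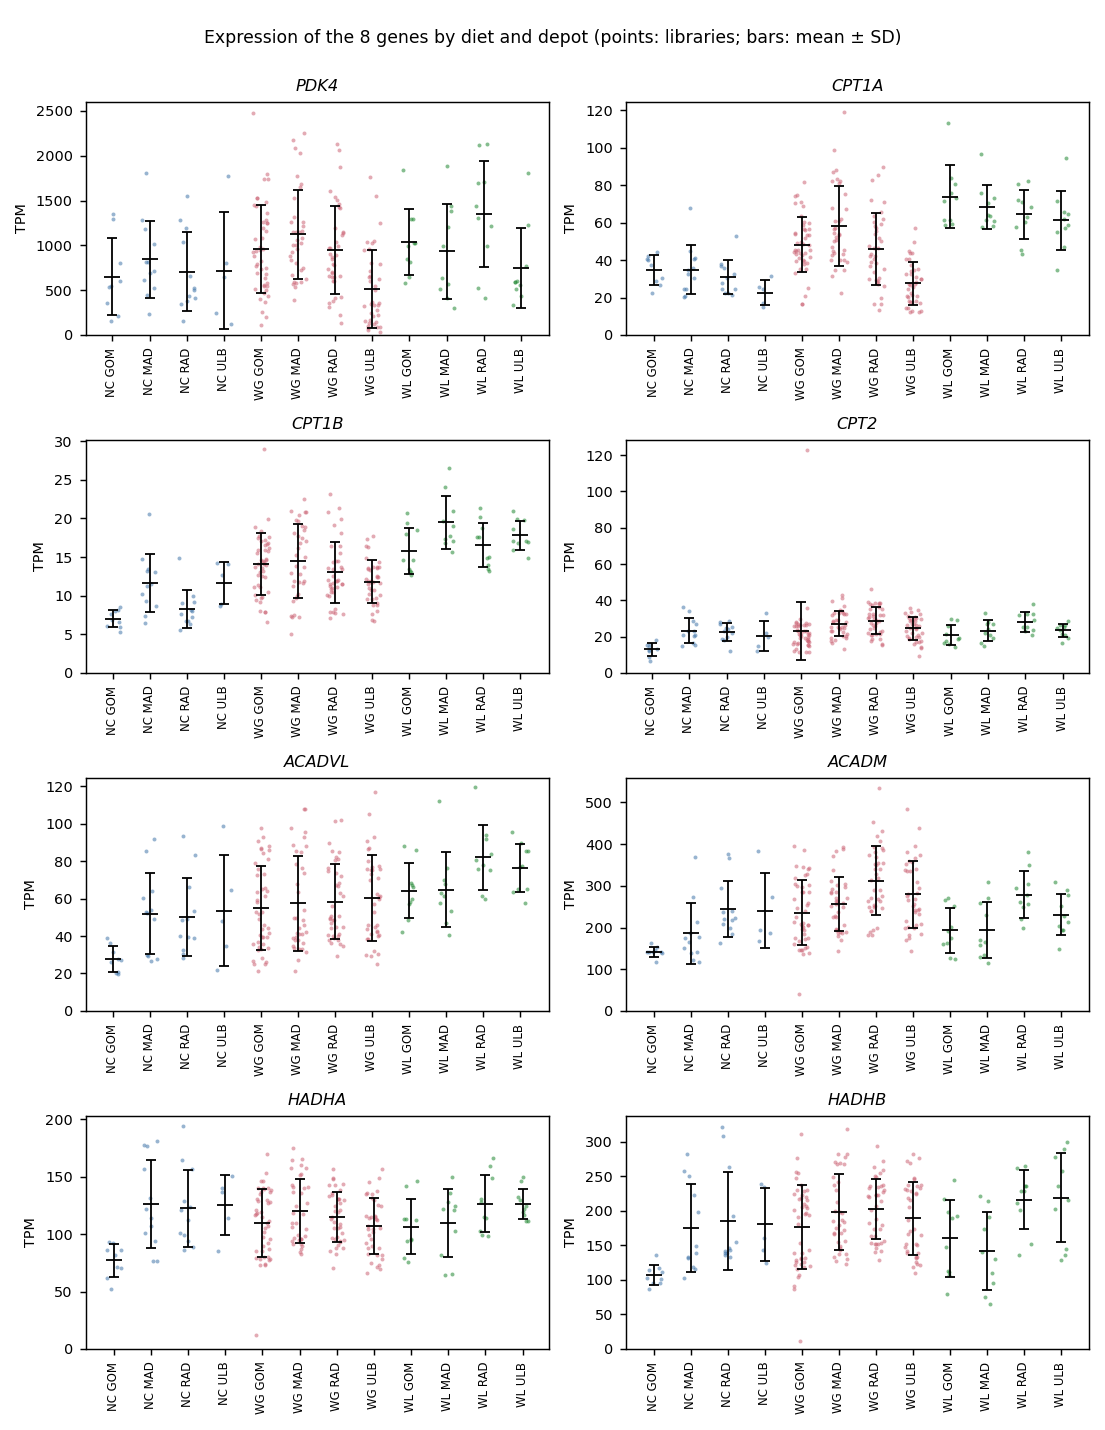
TPM (y axis) of each of the 8 genes in the 12 diet-by-depot groups (x axis); points are libraries and the bars are mean ± SD. CPT1A sits highest in the 4 WL groups, from 61.2 to 74.0 TPM on average, and PDK4 spreads widely within every group.

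CPT1A, the isoform of the liver and of most other tissues, was the gene of the 8 that was called most often with diet, in 6 of 12 comparisons. In NC GOM it ranged from 22.4 to 44.5 TPM with a median of 37.1, in WG GOM from 16.6 to 81.6 (median 45.5), and in WL GOM from 58.7 to 114 (median 72.5). In TPM every WL GOM library lay above every NC GOM library, and the WG libraries overlapped both. In TPM rescaled to nuclear genes the NC and WL ranges of GOM overlapped (38.1 to 71.9 and 65.9 to 140 TPM). In ULB the 5 NC libraries stood at 14.8, 25.6, 24.4, 17.3 and 31.3 TPM, the WG libraries at 12.0 to 57.0 (median 26.8) and the WL libraries at 34.8 to 94.4 (median 60.5). No WL library of ULB reached down to the NC range, and this held in TPM rescaled to nuclear genes too (highest NC 37.6, lowest WL 45.8 TPM).

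In MAD, CPT1A went from 20.1 to 67.7 TPM (median 33.8) in NC, from 22.4 to 119 (median 53.9) in WG and from 57.6 to 96.9 (median 63.9) in WL. In RAD the range was 21.6 to 52.8 (median 29.04) in NC, 13.1 to 89.9 (median 43.1) in WG and 43.5 to 82.5 (median 65.7) in WL. The WL and NC ranges overlapped from 57.6 to 67.7 TPM in MAD and from 43.5 to 52.8 TPM in RAD. The order of the 12 groups by mean TPM had the 4 WL groups at the top and ULB of NC at the bottom, with WL GOM at 74.0 ± 16.6 TPM (SD, n = 10) and NC ULB at 22.7 ± 6.65 TPM (SD, n = 5). In TPM rescaled to nuclear genes, WG MAD (71.1 TPM) stood between WL RAD (73.3 TPM) and WL ULB (69.6 TPM). No pair of neighbours in the order of any of the 8 genes differed beyond its spread (88 exact 2-sided Wilcoxon rank-sum tests, 0 past an adjusted p of 0.05 and 3 with an unadjusted p below it).

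Counts were compared with edgeR's quasi-likelihood test, and a gene was called when its Benjamini-Hochberg adjusted p over all PCGs tested was below 0.05 and its fold change above 1.5. Log2 fold changes are of the second group over the first, with their standard error (SE). Any 2 of the 3 diet comparisons of a depot share a group of samples, so their calls are not independent of each other. The depots came from the same pigs, so calls of a gene in different depots are not independent either. From NC to WL, CPT1A rose in all 4 depots, by 0.78 on the log2 scale in GOM (SE 0.14, adjusted p = 6.5e-05), 0.77 in MAD (SE 0.15, adjusted p = 3.2e-04), 0.75 in RAD (SE 0.14, adjusted p = 2.7e-04) and 1.18 in ULB (SE 0.17, adjusted p = 3.4e-04), by edgeR. Of the PCGs tested in these 4 comparisons, 15.4, 15.2, 10.2 and 5.39% were called higher. Over the high-share libraries alone, the difference was 0.78, 0.84 and 1.23 in MAD, RAD and ULB and still called, and 0.56 in GOM (adjusted p = 0.0345, edgeR), under the fold limit, with 2 NC and 4 WL libraries.

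The rise from WG to WL was largest in ULB, at 1.05 on the log2 scale (SE 0.16, adjusted p = 3.8e-06, edgeR), where 3.22% of PCGs were called higher (8.26% in MAD and 2.24% in RAD, where it was not called). In GOM it was 0.59 (SE 0.13, adjusted p = 0.0018, edgeR), close to the fold limit, where 2.55% of PCGs were called higher. In the high-share libraries the ULB value stayed at 1.05, and the GOM value became 0.34 (adjusted p = 0.303, edgeR, 42 WG and 4 WL libraries). From NC to WG, CPT1A was called in no depot, with values from 0.14 to 0.53, the highest in MAD (adjusted p = 0.0084, edgeR). The difference of the WG to WL change between ULB and MAD was itself past the test, at 0.81 (SE 0.22, adjusted p = 0.0079, edgeR interaction contrast), as 1 of 3 such differences among 144 tested for the 8 genes. Over all PCGs 2.66% of these interaction tests were called. In high-share libraries this one was 0.78 with an adjusted p of 0.529, and with a share term 0.80 and still called (adjusted p = 0.0117, edgeR).

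**Figure D2:**
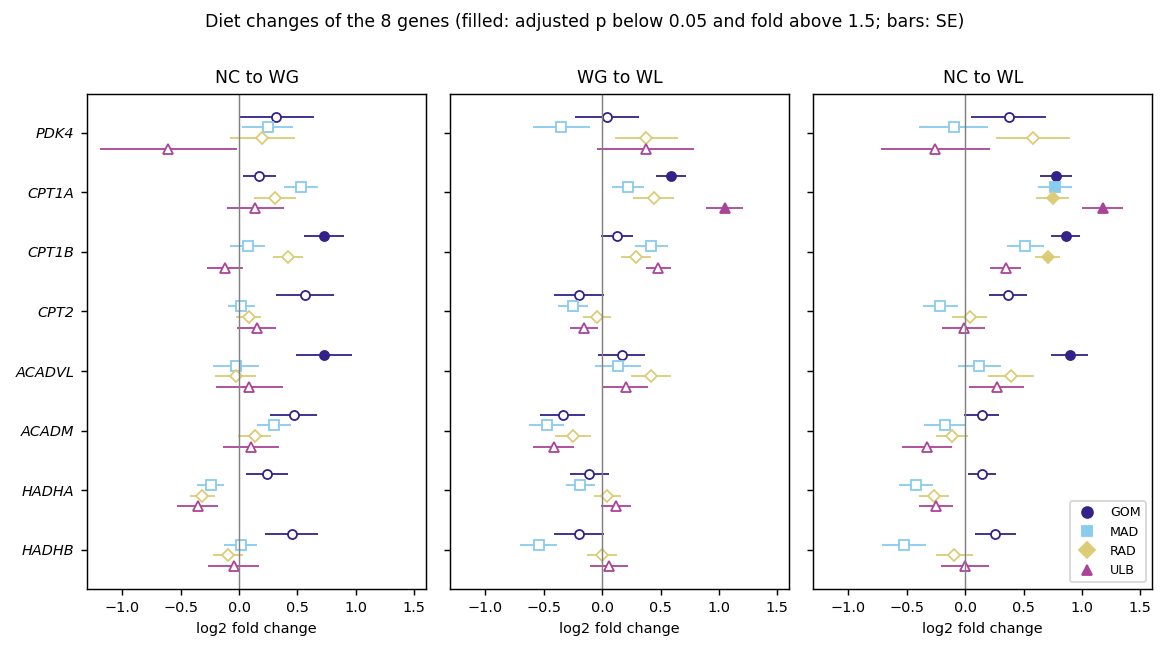
Log2 fold change (x axis, second group over first) of each gene (y axis) for the 3 diet comparisons, 1 symbol per depot; bars are SE and filled symbols passed an adjusted p of 0.05 and a fold of 1.5. The 11 filled symbols all lie to the right of 0 and belong to CPT1A, CPT1B and ACADVL.

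CPT1B, the isoform of heart and skeletal muscle, was low in every library and was called with diet in GOM and RAD. From WG to WL its log2 fold changes were 0.13 to 0.48 over the depots, all under the fold limit, with adjusted p values of 9.6e-04 to 0.630 (edgeR). Its level was 5.35 to 8.58 TPM (median 6.91) in NC GOM, 6.65 to 28.97 (median 14.1) in WG GOM and 12.6 to 20.7 (median 14.6) in WL GOM. Every WL GOM library lay above every NC GOM library. It rose from NC to WG by 0.73 (SE 0.17, adjusted p = 7.2e-04, edgeR) and from NC to WL by 0.86 (SE 0.12, adjusted p = 6.5e-06, edgeR). With only the high-share libraries, 2 of them from NC, the values were 1.12 and 1.41, both still called. In NC to WG GOM 12.2% of PCGs were called higher.

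In RAD, CPT1B went from 5.61 to 14.9 TPM (median 7.81) in NC to 13.1 to 21.3 (median 16.3) in WL, an overlap of the ranges at their edge and a rise of 0.71 (SE 0.11, adjusted p = 3.5e-05, edgeR). It was 0.56 over the high-share libraries, past the adjusted p (0.0162, edgeR) but under the fold limit. In ULB, where NC libraries already stood at 8.98, 8.60, 14.1, 12.6 and 14.2 TPM and WG libraries at 6.73 to 17.8 (median 11.8), the NC to WG value was -0.12 (adjusted p = 0.781, edgeR). The NC to WG change was lower in ULB than in GOM by 0.88 on the log2 scale (interaction -0.88, SE 0.23, adjusted p = 0.0158, edgeR) and lower in MAD than in GOM (interaction -0.68, SE 0.19, adjusted p = 0.0142, edgeR). Without NC ULB replicate 7 the former had an adjusted p of 0.0879 (edgeR), and over the high-share libraries the values were -1.26 and -1.05, larger in size but with adjusted p values of 0.0529 and 0.169 (edgeR). Both were called with a share term. Of 15068 PCGs tested, 562 were called in the contrast of ULB with GOM and 1337 in that of MAD with GOM. Of the skeletal muscle markers, ACTA1, CKM, TNNT1, TNNT3 and TNNC2 were in the table, and their summed level had group medians of 1.45 to 4.89 TPM with a highest library of 130 TPM in NC MAD. Of the tests of these markers from NC to WL, 0 of 5 were called higher and 4 lower, CKM in all 4 depots.

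ACADVL, which takes the first dehydrogenation step of the longest chains, was the only matrix enzyme among the 8 that was called with diet, in GOM. It ranged from 19.8 to 39.2 TPM (median 27.1) in NC GOM, from 21.6 to 97.6 (median 51.5) in WG GOM and from 42.4 to 88.3 (median 63.0) in WL GOM. In TPM the WL range lay wholly above the NC range, and the WG range overlapped both. In TPM rescaled to nuclear genes the NC and WL ranges overlapped (29.5 to 63.2 and 52.4 to 104 TPM). The rise was 0.72 from NC to WG (SE 0.24, adjusted p = 0.0147) and 0.89 from NC to WL (SE 0.16, adjusted p = 8.2e-05) by edgeR. It was 1.12 over the high-share libraries (adjusted p = 0.16) and 1.40 (adjusted p = 0.0018) by edgeR. In the other depots its NC means were already 50.2 to 53.5 TPM, close to the WG means of 57.5 to 60.4.

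Together, 11 of the 96 diet tests of the 8 genes were called, all of them higher in the later diet of the pair, and 17.2% of all such PCG tests were called (7.39% higher and 9.81% lower). By comparison the counts were 2 of 32 from NC to WG (background 14.3%), 2 of 32 from WG to WL (9.32%) and 7 of 32 from NC to WL (27.8%). Of all PCG tests, 6.37, 4.08 and 11.6% were called higher in these 3 comparisons, so the first count is near its background, and the 7 of NC to WL are 4 of CPT1A, 2 of CPT1B and 1 of ACADVL. By depot, in the order GOM, MAD, RAD and ULB, the background of calls was 26.7, 10.7, 16.7 and 2.38% from NC to WG, 5.26, 17.4, 6.37 and 8.12% from WG to WL, and 36.1, 33.1, 26.7 and 14.8% from NC to WL. An unadjusted p below 0.05 was reached by 10, 10 and 13 of the 32. The median log2 fold change of the 8 genes lay between -0.22 and 0.46 over the 12 comparisons, highest in NC to WG GOM and lowest in WG to WL MAD, while the median of all PCGs tested lay between -0.041 and 0.012.

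The adipocyte markers moved with the GOM results. Together they stood at 4982 to 8812 TPM in NC GOM, 4475 to 24603 in WG GOM and 6625 to 16101 in WL GOM, and 4 of the 8 were called higher from NC to WG and 4 higher and 1 lower from NC to WL. In ULB from WG to WL, where CPT1A rose most, 3 of 8 were called higher. The macrophage markers summed to a mean of 984 TPM in NC GOM and to 341 to 454 TPM in the other NC depots. From NC to WL in MAD, where CPT1A also rose, 6 of 8 macrophage markers were called higher (median log2 fold change 1.502), 5 of 6 lymphocyte markers higher (median 3.39), and 4 of 8 adipocyte markers lower and 1 higher. In RAD, 4 of 8 macrophage markers were called higher, and 1 adipocyte marker higher and 2 lower. Of 3 liver and pancreas markers tested in GOM, 2 were called higher from NC to WL (median 2.29) and 2 from WG to WL (median 2.68). The part of these markers in the results was not tested. In bulk tissue, fewer cells of a type and less RNA per cell cannot be told apart.

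CPT2, ACADM, HADHA and HADHB were called with diet in no depot over all libraries. Over the high-share libraries, 2 from NC and 4 from WL, ACADM (0.60, adjusted p = 0.0495) and HADHB (0.86, adjusted p = 0.0050) were called higher from NC to WL in GOM by edgeR. CPT2 had group means of 12.95 to 28.8 TPM, ACADM of 142 to 313, HADHA of 77.3 to 127 and HADHB of 107 to 219. Below the fold limit, HADHB fell by 0.54 and ACADM by 0.47 from WG to WL in MAD (adjusted p = 0.0089 and 0.0128, edgeR). In the same depot HADHA fell by 0.42 and HADHB by 0.52 from NC to WL (adjusted p = 0.0217 and 0.0283, edgeR). Of the WL MAD libraries 6 of 10 had a low PCG share, and over the high-share ones the WG to WL values of HADHB and ACADM were both -0.13. Lymphocyte markers moved in the same comparison, with 6 of 6 called higher from WG to WL in MAD. Their part in the result was not tested.

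PDK4 was the most abundant of the genes and was called in none of the 12 diet comparisons. In NC it stood at 158 to 1344 TPM (median 551) in GOM, 234 to 1809 (762) in MAD and 156 to 1553 (517) in RAD, and the 5 ULB libraries had 1777, 801, 120, 245 and 651 TPM. In WL the medians were 1006, 812, 1369 and 589 TPM from GOM to ULB. Ranges of all 3 diets overlapped in each depot. Its log2 fold changes lay between -0.61 and 0.58 with adjusted p values of 0.141 to 0.946 (edgeR). The largest rise was NC to WL in RAD, and the largest fall was from NC to WG. The spread among animals was wide. In WG ULB the highest library (1763 TPM) was 58.7-fold above the lowest (30.0 TPM).

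Between depots, GOM stood apart in NC and ULB in WG. In NC, GOM had the lowest mean TPM of the 4 depots for CPT1B, CPT2, ACADVL, ACADM, HADHA, HADHB and PDK4. In TPM rescaled to nuclear genes this held for the same genes but PDK4, with means of 1015, 1165, 985 and 881 TPM from GOM to ULB. HADHA stood at 52.0 to 93.3 TPM (median 81.6) in GOM and at 86.0 to 194 (median 117) in RAD. ACADM stood at 118 to 162.2 (median 142) in GOM and 162.5 to 375 (median 221) in RAD, so that in TPM all RAD libraries lay just above the GOM range. In TPM rescaled to nuclear genes these 2 ranges of ACADM overlapped (199 to 254 and 232 to 423 TPM). Of 48 tests between depots in NC 16 were called, against 13% of PCGs, and all 16 involved GOM. The pairs without GOM had fewer calls over all PCGs too, at 2.41% from MAD to RAD (0.509% higher and 1.90% lower), 7.73% from MAD to ULB (4.57 and 3.17%) and 4.32% from RAD to ULB.

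From GOM to MAD, 5 genes were higher, CPT2 by 0.79, CPT1B by 0.69, ACADVL by 0.82, HADHA by 0.64 and HADHB by 0.63 (adjusted p from 0.0022 to 0.0068, edgeR; 17.7% of PCGs called, 7.49% higher). From GOM to RAD, 5 were higher, ACADVL by 0.89, CPT2 by 0.83, HADHB by 0.81, ACADM by 0.80 and HADHA by 0.69 (adjusted p from 6.1e-05 to 0.0041, edgeR; 19.5% called, 9.89% higher and 9.59% lower). From GOM to ULB, ACADVL, ACADM, HADHB, CPT1B and HADHA were higher by 0.86, 0.71, 0.69, 0.67 and 0.64, and CPT1A was lower by 0.70 (log2 fold change -0.70, adjusted p = 0.0087, edgeR; 25.4% called). CPT1A thus ran against the other genes in this pair of depots. Samples of the same number deviated together in GOM and ULB of NC, and with the replicate number as a block over the 4 pairs only HADHA was still called (0.76, adjusted p = 0.0438, edgeR), while CPT1A was at -0.54 (adjusted p = 0.106).

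With a term for the PCG share in the fit, 13 of these 16 NC calls were kept, the lost ones being ACADVL from GOM to ULB and HADHA and HADHB from GOM to MAD. Of the 9 GOM libraries, 7 had a low share. With the high-share libraries alone, 2 of them from GOM, 2 of the 16 calls were left, CPT1B at 1.16 (adjusted p = 0.0388) and ACADVL at 1.66 (adjusted p = 0.0342) from GOM to ULB, by edgeR. The 14 lost calls kept their direction, with adjusted p values of 0.0603 to 0.338 (edgeR). Their log2 fold changes were 0.83 to 1.42, larger than over all libraries, except for CPT2 (0.55 to MAD and 0.60 to RAD) and CPT1A (-0.71). Without NC ULB replicate 2, 5 of the 6 calls between GOM and ULB were lost and CPT2 was gained.

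In WG, the 6 calls of 48 (background 10.8%) were all lower in ULB and belonged to CPT1A and PDK4. CPT1A had a median of 26.8 TPM in ULB against 45.5, 53.9 and 43.1 in GOM, MAD and RAD, with overlapping ranges. It was lower by 0.72, 1.03 and 0.71 (log2 fold changes -0.72, -1.03 and -0.71 from GOM, MAD and RAD to ULB, adjusted p = 3.5e-09, 1.4e-12 and 2.5e-06, edgeR). PDK4 had a median of 351 TPM in ULB against 925, 1041 and 869, with log2 fold changes of -0.79, -1.06 and -0.85 (adjusted p = 0.0047, 2.3e-04 and 0.0052, edgeR). All 6 were called over the high-share libraries too, with log2 fold changes between -0.70 and -1.03. The other 6 genes were called between no pair of depots in WG. With the replicate number as a block the 6 calls were kept, and ACADM was called from GOM to RAD.

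In WL, 2 of 48 tests were called (background 10.1%), both of HADHB. It had 64.8 to 222 TPM (median 136) in MAD, 136 to 266 (median 229) in RAD and 129 to 300 (median 226) in ULB. The log2 fold change was 0.60 from MAD to RAD (SE 0.17, adjusted p = 0.0283) and 0.59 from MAD to ULB (SE 0.19, adjusted p = 0.0322) by edgeR. It was 0.25 (adjusted p = 0.758) and 0.33 (adjusted p = 0.305) over the high-share libraries by edgeR. CPT1A, lower in ULB in WG, had adjusted p values of 0.0886 to 0.843 between the depots of WL.

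The balance within pairs of genes also varied by group. The log2 ratio of HADHA to HADHB in TPM had a mean of -0.67 ± 0.30 (SD, over all libraries), and HADHA exceeded HADHB in 4 libraries. That of CPT1A to CPT1B was positive in 233 libraries and averaged 1.65 ± 0.60 (SD, over all libraries). It was lowest in ULB of NC (0.88 ± 0.41, SD, n = 5) and WG (1.08 ± 0.54, SD, n = 38), and highest in GOM of WL (2.15 ± 0.45, SD, n = 10) and NC (2.14 ± 0.35, SD, n = 9). The ratio of CPT2 to CPT1A ran from -0.10 ± 0.45 in WG ULB to -1.79 ± 0.30 in WL GOM (SD, n = 38 and 10). The transcripts of the inner and outer transferase thus stood at like levels in WG ULB and far apart in WL GOM.

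The WG group, with 36 to 45 libraries per depot, allowed the genes to be compared across animals. Of the pairwise correlations of log2(TPM + 1), 28 pairs in each of 4 depots, 65 had an adjusted p below 0.05 (2-sided permutation tests, 100000 permutations), 47 positive and 18 negative. HADHA and HADHB, read from the 221-base stretch printed above, had the highest r of the 28 pairs in GOM, MAD and RAD, and in ULB came after ACADVL with HADHB (0.83) and ACADM with HADHB (0.82). Their Pearson r was 0.93, 0.81, 0.85 and 0.81 in the order GOM, MAD, RAD and ULB, with Spearman rho of 0.75, 0.78, 0.84 and 0.80 (permutation p = 1e-05, the smallest possible, adjusted p = 5.6e-05). Without the 2 libraries farthest from the median of HADHA, r was 0.80, 0.80, 0.83 and 0.80. By rho the pair was not the highest in GOM. There its rho of 0.747 lay below ACADVL with HADHA (0.818), ACADVL with HADHB (0.777) and ACADM with HADHB (0.753). With the GC trend of each library removed, the pair had the highest r in GOM only. Its rho there was 0.77, below ACADVL with HADHB (0.85) and ACADVL with HADHA (0.84). In TPM rescaled to nuclear genes r was 0.91, 0.63, 0.74 and 0.59.

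PDK4 went with ACADM, at r = 0.68, 0.47, 0.42 and 0.36 in GOM, MAD, RAD and ULB, and not with CPT1A, at r = 0.23, 0.03, 0.16 and 0.20, where none passed. CPT2 ran against ACADM in all depots, at r = -0.71, -0.40, -0.59 and -0.59. In GOM its rho with ACADM was -0.47, and r was -0.48 without the 2 libraries farthest from the median of CPT2. In TPM rescaled to nuclear genes this pair did not pass in MAD (r = -0.32, adjusted permutation p = 0.0863), nor did PDK4 with ACADM in MAD and ULB (adjusted permutation p = 0.0655 and 0.0738). CPT2 ran against PDK4 in GOM (-0.71, adjusted permutation p = 5.6e-05) and MAD (-0.41, adjusted permutation p = 0.0253), and had r = -0.34 in RAD and -0.01 in ULB (adjusted permutation p = 0.0581 and 0.975). CPT1A and CPT2, the outer and the inner end of the shuttle, had r = 0.44, 0.56 and 0.64 in MAD, RAD and ULB (adjusted permutation p = 0.0145, 9.0e-04 and 9.7e-05) and -0.09 in GOM (adjusted permutation p = 0.608). The GOM value turned to 0.23 without the 2 libraries farthest from the median, and rho was 0.27. Transcript GC content differed between the genes, from 37.4% in ACADM and 39.6% in PDK4 to 56.7% in CPT2 and 59.8% in CPT1B, and with the GC trend of each library removed 67 passed in place of 65, not all of them the same pairs. CPT2 and ACADM then had r = -0.49, -0.05, -0.43 and -0.53 in the 4 depots (adjusted permutation p = 0.794 in MAD). PDK4 and ACADM passed in GOM and MAD (r = 0.44 and 0.39) but not in RAD or ULB (adjusted permutation p = 0.0750 and 0.1498). CPT2 and PDK4, and CPT1A and CPT2, no longer passed in MAD (adjusted permutation p = 0.135 and 0.0749).

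**Figure D3:**
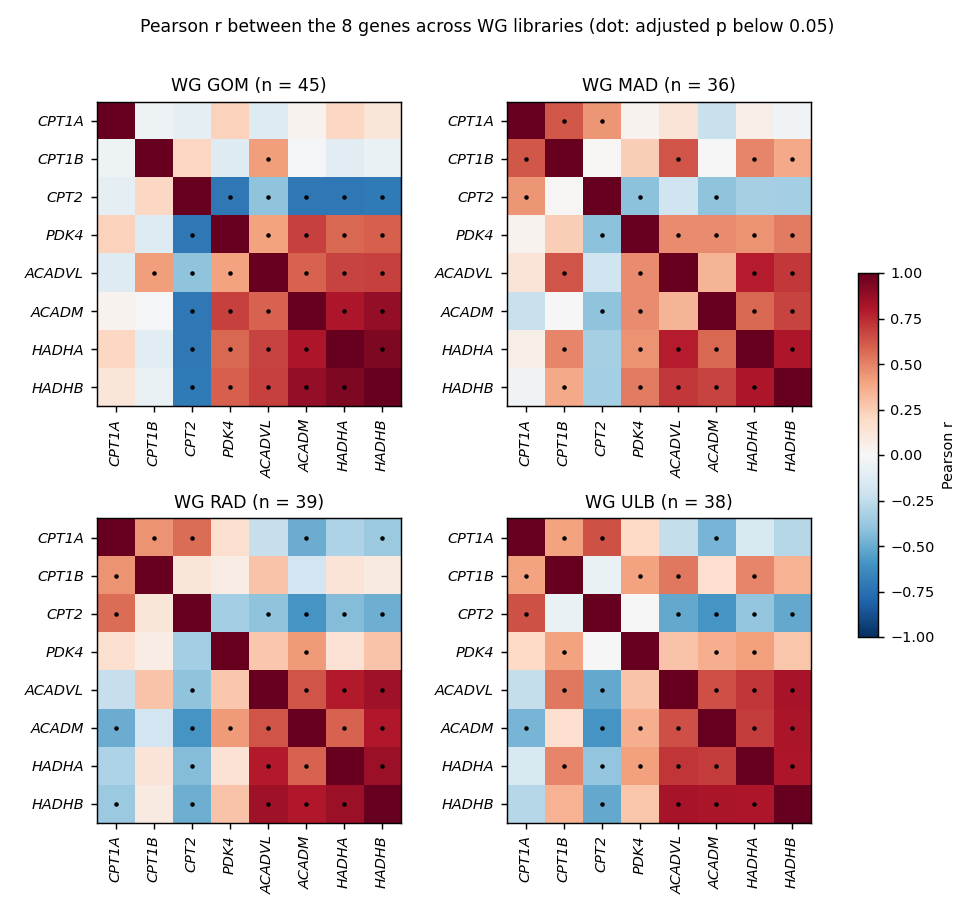
Pearson r between each pair of the 8 genes across the WG libraries of each depot (rows and columns are genes, colour is r, a dot marks an adjusted permutation p below 0.05). HADHA and HADHB are above 0.8 in every depot, and CPT2 is below 0 against ACADM in every depot.

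By the pattern over all libraries, after the mean of each group was removed, other genes were closest to each of the 8. Among the 3 closest of 12310 PCGs were B3GALNT1 (r = 0.69), TXNIP (0.69) and IL1RAP (0.68) for PDK4, ADAM15 (0.74), KLF11 (0.73) and FGD5 (0.71) for CPT1A, and LRRC45 (0.74), TMUB2 (0.74) and E4F1 (0.73) for CPT1B. CRAT, the carnitine acetyltransferase, was the closest to CPT2 (0.78), followed by SCAMP3 (0.78) and IDUA (0.77). ACADM was closest to PSMC6 (0.87), PSMC2 (0.86) and RIDA (0.85), HADHB to AAGAB (0.90) and COQ5 (0.89), HADHA to DCTN2 (0.86), EEF2 (0.85) and EIF4B (0.85), and ACADVL to PTPA (0.87), C14orf93 (0.86) and TPRG1L (0.85). These correlations describe libraries that also differ in depth and GC trend and carry no test.

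Where other genes of the pathway were called from WG to WL, they were lower, while CPT1A was higher. Of 48 such genes of oxidation, fuel choice and ketone metabolism tested, those called were 7, 15, 6 and 8 in the order GOM, MAD, RAD and ULB, against 2.71, 9.17, 4.13 and 4.90% of PCGs called lower. Over the high-share libraries these counts were 0, 2, 8 and 7, and with a share term 4, 10, 8 and 7. From NC to WL the calls were 10 higher and 3 lower in GOM, 2 and 23 in MAD, 2 and 12 in RAD, and 1 and 11 of 49 in ULB. Over the high-share libraries they were 20 and 3, 2 and 8, 2 and 15, and 1 and 9. Of PCGs, 20.7, 17.8, 16.6 and 9.37% were called lower in these 4 comparisons. From NC to WG the calls were 15 higher and 1 lower in GOM (1 and 0 over the high-share libraries, 12 and 1 with a share term), 1 and 1 in MAD, 1 and 4 in RAD, and none of 49 in ULB. Of PCGs, 5.38% were called higher and 5.29% lower in this comparison in MAD, 7.10 and 9.60% in RAD, and 0.507 and 1.87% in ULB. The mitochondria-encoded genes were lower in 48 of 48 tests from WG to WL, and their part in the result was not tested.

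**Figure D4:**
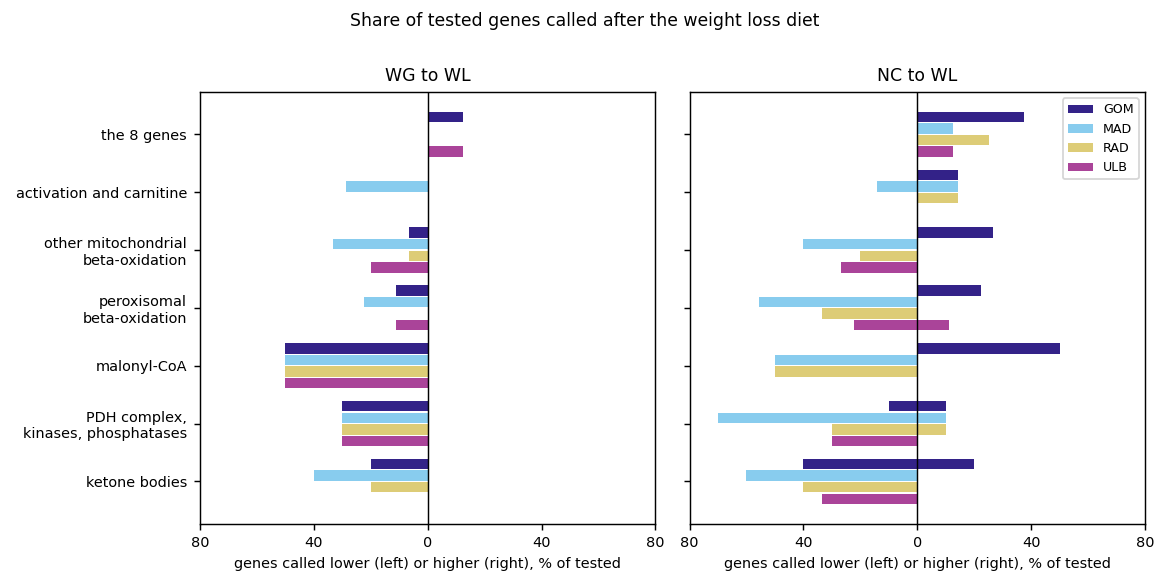
Share of the tested genes of each list (y axis) called higher (to the right of 0) or lower (to the left), in percent of those tested (x axis), from WG to WL and from NC to WL, 1 bar per depot. From WG to WL every bar of the other 6 lists plotted points left, and the 8 genes are called only to the right.

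Among other enzymes of mitochondrial β-oxidation, 10 of 60 tests were called lower and 0 higher from WG to WL, and 13 lower and 4 higher from NC to WL. ECHS1, the short-chain enoyl-CoA hydratase, had a median log2 fold change over the depots of -0.78 from WG to WL and was called lower in 3 of 4. ACADSB, the short/branched-chain acyl-CoA dehydrogenase, was at -0.71 and lower in 3, and HADH, the short-chain 3-hydroxyacyl-CoA dehydrogenase, at -0.75 from NC to WL and lower in 3. In the peroxisome, which shortens very long chains, 4 of 36 tests were lower from WG to WL and 0 higher, and HSD17B4, its multifunctional enzyme, was at -0.72 and lower in 3.

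The malonyl-CoA and pyruvate dehydrogenase lists bear on CPT1A and PDK4 through the steps that these genes gate. ACACA, which makes malonyl-CoA, fell from WG to WL in all 4 depots, with a median log2 fold change of -1.16 (adjusted p at most 0.0012, edgeR), from group means of 240 to 318 TPM to 103 to 143 TPM. PDHA1 and PDHB, the alpha and beta subunits of pyruvate dehydrogenase, of which the alpha subunit is phosphorylated by PDK4 and its relatives, fell in all 4, at medians of -0.94 and -1.002. Over the high-share libraries none of the 48 pathway genes, ACACA, PDHA1 and PDHB among them, was called from WG to WL in GOM. In MAD 2 of the 48 were. PDK2, another kinase of the complex, fell from NC to WL in all 4 depots, at a median of -1.72, and PDP1, a phosphatase that opposes the kinases, rose in 3, at a median of 0.70. In all, 12 of 40 tests of this list were lower and 0 higher from WG to WL.

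Of the activation and carnitine genes (acyl-CoA synthetases, CPT1C, the carnitine carrier SLC25A20 and CRAT), 2 of 28 tests were lower and 0 higher from WG to WL. Among the transcriptional regulators, PPARA, the fatty acid receptor known for driving oxidation genes in liver, fell from NC to WL in all 4 depots (median -0.92), and PPARD in 3 (median -0.88). TFEB, a regulator of lysosomes and lipid breakdown, rose in all 4 (median 0.91). The list had 5 tests higher and 8 lower of 32 from NC to WL, and 1 higher and 3 lower from WG to WL.

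Of the enzymes of ketone body metabolism, OXCT1, the transferase that starts the breakdown of ketone bodies, was abundant and depot-graded. Its means were 416, 625.4, 895 and 1090 TPM in GOM, MAD, RAD and ULB of NC, 435, 613, 913 and 984 in WG, and 260, 265, 522 and 774 in WL. It fell from NC to WL in all 4 depots (median log2 fold change -1.03, adjusted p at most 0.0126, edgeR) and from WG to WL in 3 (median -0.85). BDH1, which interconverts the ketone bodies, had means of 2.75 to 5.51 TPM, and ACAT1, a mitochondrial thiolase, of 142 to 258 TPM. HMGCLL1, a lyase outside the mitochondrion, had means of 1.01 to 2.30 TPM and a median log2 fold change of -0.98 from NC to WG, lower in 3 depots. Of the ketone list, 4 of 20 tests were lower and 0 higher from WG to WL, and 9 lower and 1 higher of 21 from NC to WL.

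Hi-C gave an A-B index for each 20-kb bin in 240 samples (9, 12, 12 and 5 in NC, 46, 37, 40 and 39 in WG, 10 each in WL). Positive values mark compartment A, the open, transcribed part of the nucleus, and negative values compartment B. The index has no unit, and the depth behind each bin is not in the table. The bins at the starts of CPT1A, CPT1B, CPT2, ACADVL, HADHA, HADHB and PDK4 were positive in all 240 samples, with medians from 3.22 (PDK4) to 6.12 (ACADVL). HADHA and HADHB share a bin. ACADM stood apart, positive in 53 of 240 samples with a median of -0.59, although it was the second most abundant transcript of the 8.

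Differences of the index were tested with limma across all 113298 bins, and a bin was called at an adjusted p below 0.05 and a difference above 0.75. Between diets, 16 of 96 tests of the genes were called, 14 higher and 2 lower, against 7.15% of all bin tests. The shared bin of HADHA and HADHB is counted once for each gene, and the 2 lower are this bin in 1 comparison. At CPT1A the index rose from 3.18 ± 0.38 (SD, n = 12) in NC RAD to 4.24 ± 0.44 (SD, n = 40) in WG RAD and 4.77 ± 0.50 (SD, n = 10) in WL RAD, by 1.06 (SE 0.14, adjusted p = 1.4e-06) and 1.59 (adjusted p = 6.3e-07) against NC. All WL RAD samples (3.81 to 5.55) lay above all NC RAD samples (2.67 to 3.72). In GOM it rose by 0.77 from NC to WG (SE 0.18, adjusted p = 0.0033) and by 1.12 from NC to WL, and in MAD by 0.91 from NC to WL. In ULB, where the CPT1A transcript rose most, the index was 3.55 ± 0.48 (SD, n = 5) in NC, 4.10 ± 0.58 (SD, n = 39) in WG and 3.84 ± 0.55 (SD, n = 10) in WL, and was not called.

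At CPT2 the index rose from NC to WL by 1.29 in GOM, 1.07 in MAD and 1.13 in RAD and from NC to WG by 0.92 in RAD, with no call of the transcript in these comparisons. At PDK4 it rose from WG to WL by 0.82 in RAD (adjusted p = 0.0156) and 0.92 in ULB (adjusted p = 0.0056), and from NC to WL by 1.19 and 1.09, again with no call of the transcript. At ACADM in RAD it went from -1.02 ± 0.48 (SD, n = 12) in NC to 0.12 ± 0.85 (SD, n = 10) in WL, across 0 (difference 1.14, adjusted p = 0.0021). The shared bin of HADHA and HADHB fell in ULB from 6.15 ± 0.77 (SD, n = 5) to 5.06 ± 0.57 (SD, n = 39) from NC to WG (difference -1.09, adjusted p = 0.0110) and was not called without NC ULB replicate 5 or 9. The median difference over all bins was itself above 0 in most comparisons, up to 0.285 in NC to WL RAD. After quantile normalization of the index 12 of the 96 were called, 6 higher and 6 lower, among them CPT1A in RAD, CPT2 in GOM and RAD, ACADM in RAD and PDK4 in RAD, and neither PDK4 rise from WG to WL. The 6 lower were all of the shared bin of HADHA and HADHB, counted for each gene. They were NC to WG in ULB and NC to WL in MAD and RAD.

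**Figure D5:**
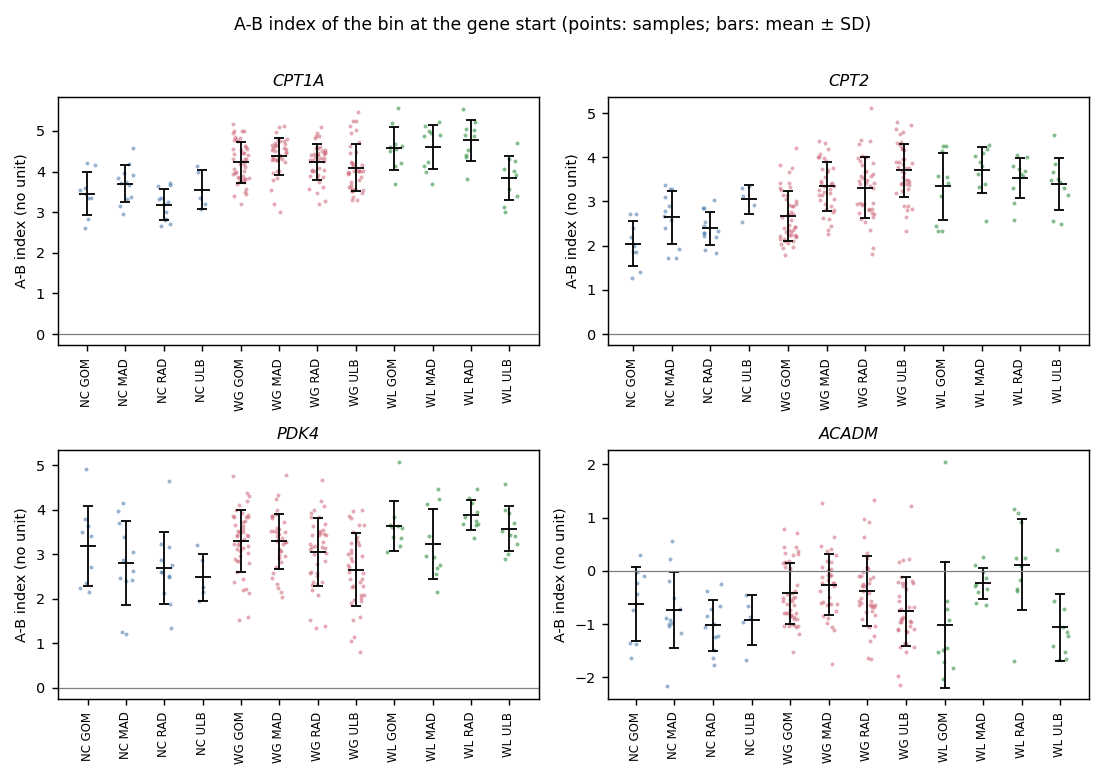
A-B index (y axis, no unit) of the bin at the start of CPT1A, CPT2, PDK4 and ACADM in the 12 groups (x axis); points are Hi-C samples and bars are mean ± SD. ACADM scatters around and below 0, and the other 3 genes lie above 0 in all 240 samples.

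Between depots, 7 of 144 index tests were called (3 higher, 4 lower), against 11.4% of all bin tests. CPT2 was higher in ULB than in GOM, by 1.00 in NC (adjusted p = 0.0108; with the replicate number as a block 0.87, adjusted p = 0.0582 and no longer called) and 1.03 in WG (adjusted p = 1.7e-11). The other 5 were in WL, where CPT1A was lower in ULB than in MAD (-0.77, adjusted p = 0.0262) and RAD (-0.94, adjusted p = 0.0134), and ACADM lower in ULB than in MAD (-0.82) and RAD (-1.17) and higher in RAD than in GOM (1.13).

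H3K27ac, a histone mark of active enhancers, was given as ranked enhancer regions in 18 tables of pooled samples, 4 of NC, 10 of WG subgroups and 4 of WL. With pooled samples there is no replicate error and no test. Within 10 kb of PDK4 and of CPT1A a region was present in all 18 tables. PDK4 held a super-enhancer, a cluster of regions above the cutoff of the caller, in 10 tables, including all 4 of WL, where its best ranks were 205, 513, 233 and 605 in the order of depots used above. In NC they were 420, 958, 1373 and 897. CPT1A held one in 8 tables, including all 4 of WL (ranks 871, 1051, 887 and 950), and in NC only in RAD (rank 729). Its best ranks in GOM, MAD and ULB of NC were 984, 2348 and 1915. The cutoff differed by table, with 932 to 1211 super-enhancers in those of NC and 1346 to 1652 in those of WL. In NC GOM, where CPT1A ranked 984, 956 regions were marked, and in NC MAD, where PDK4 ranked 958, 932 were.

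ACADVL lay near a super-enhancer in 11 tables, with a best rank of 15 in NC RAD. CPT2 did so in 2 tables, NC MAD and NC RAD, and CPT1B, ACADM, HADHA and HADHB in none. The count depended on the distance allowed. Within 50 kb, CPT2 had a super-enhancer in 9 tables, CPT1B in 5 and ACADVL in 12, and with no distance allowed CPT1A had one in 3 and ACADVL in 6, while PDK4 stayed at 10. A region of any rank was present at HADHA and HADHB in 18 tables, at CPT2 in 16, at CPT1B in 15 and at ACADM in 10. Over all genes of the annotation, 62.5 to 82.0% had a region and 5.48 to 26.6% a super-enhancer in a table. Regions within 2000 bases of a gene start were left out by the authors before ranking.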

How the data were processed

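Reads were processed by the authors, and the work described here began from their tables of RNA-seq, Hi-C (240 samples) and ChIP-seq (18 tables). The deposited estimated counts and TPM were made by the authors with kallisto 0.43.0 (bias correction, strand set) and tximport on Sscrofa11.1. The deposited A-B index is a score that the authors computed per 20-kb bin from balanced and quantile-normalized contact matrices. The ROSE tables give, as deposited by the authors, the H3K27ac and input signal of each region, its rank (a score) and a super-enhancer mark (kind other). ChIP-seq reads had been mapped with BWA 0.7.15 and SAMtools 1.3.1 and peaks called with SICER, per the submitters' processing notes. The tables of counts and of the A-B index each hold 9 further columns that match no label, which were not used, nor were lncRNA, TUCP and TAD tables.

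Groups came from the deposited labels. Counts were rounded and fitted with edgeR 4.0.16 (TMM, quasi-likelihood) in R 4.3.3, for genes that passed 0.5 TPM in 80% or more of the libraries of either group, in 12 fits between diets and 18 between depots, with no covariates, and 18 interaction contrasts in a fit of all 12 groups. P-values of the diet fits within a depot measure the spread between animals. The depot fits without a block and the interaction fit treated depots of the same pig as independent. Their p-values therefore do not measure that spread alone. The index was fitted with limma 3.58.1. Correlations and exact tests used scipy 1.17.1, pandas 2.3.3 and numpy 2.4.6 in Python 3.11.15 (figures, matplotlib 3.10.9). The alternatives were DESeq2 1.42.0, other scaling and filters, the replicate block, the PCG share of TPM, samples left out and, added after seeing the data, the GC trend of each library. Tested on counts simulated from NC to WG in RAD (13571 genes), edgeR recovered 198 of 200 changed genes. All 8 genes passed the filter on low values in each fit.

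The genes and the lists were chosen with earlier results of these data known. From the lists, genes are named that were called in the same direction in at least 3 depots of a diet comparison, at most 5 a list, with the ketone body genes, and the 3 PCGs most like each of the 8. Some genes that this rule names are not reported here. Of the symbols listed, 17 were not found in the table and were not analysed here. The mesothelial, endothelial and lymphocyte markers were called higher and lower in 0 and 2 of 7, 1 and 0 of 16, and 1 and 1 of 18 tests from NC to WG, and in 1 and 2 of 7, 3 and 2 of 16, and 9 and 1 of 20 from NC to WL. Macrophage markers were called higher in 11 and lower in 1 of 29 tests from NC to WG, and liver and pancreas markers in 1 and 3 of 13. From NC to WL these were 10 and 3 of 32, and 3 and 0 of 12.

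The replicate number was taken to pair samples where every pair of same-numbered samples deviated together (r above 0.1). This held for GOM and ULB in NC (4 pairs, lowest r 0.104), MAD and ULB in WG (30 pairs, 0.269), RAD and ULB in WG (33 pairs, 0.101) and MAD and RAD in WL (10 pairs, 0.236), and for no diet comparison. The rule is strict. In WG, 35 of 36 pairs of GOM and MAD, 37 of 39 of GOM and RAD, 37 of 38 of GOM and ULB and 30 of 31 of MAD and RAD passed 0.1. Their median r was 0.58 to 0.64, against -0.096 to -0.028 for samples of other numbers. The authors took the 4 depots from each carcass, and fits between depots are unpaired unless a block is named. Counting error is not given, since the spread between animals covers it. For the A-B index the depth behind a bin is unknown.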

Additional observations from a re-analysis of the deposited data

Results flagged for a closer look

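In 3 of 48 sets of expression values tested, 1 library lay far from the others of its group by Dixon's test, where chance gives about 1 in 20. They were CPT1A in WL GOM replicate 8 (114 TPM, the next of 10 libraries being nearer the group) and WL MAD replicate 2 (96.9 TPM), and ACADVL in WL MAD replicate 9 (112.1 TPM).

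The A-B index had 7 such samples in 42 sets. WL GOM replicate 9 was far from the other 9 samples at PDK4 (5.08), CPT1B (8.15), ACADM (2.05) and the shared bin of HADHA and HADHB (3.33, the lowest). The others were CPT1B in NC ULB replicate 12 (6.28), ACADVL in NC GOM replicate 1 (6.97) and HADHA in WL RAD replicate 4 (6.23). Left out after seeing the data, WL GOM replicate 9 took the calls from 16 to 17 between diets and from 7 to 8 between depots, and both additions were of ACADM.

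The diet changes differed between depots by an interaction test for CPT1B from NC to WG, lower in MAD than in GOM (-0.68) and in ULB than in GOM (-0.88), and for CPT1A from WG to WL, higher in ULB than in MAD (0.81). Over the high-share libraries the values were -1.05, -1.26 and 0.78 and none was called, and with a share term all 3 were called.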

How the results depend on the processing

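Of the 2 calls from NC to WG, both were kept with a share term, 1 was left over the high-share libraries and 0 with the replicate block, and there were 4 with the GC slope as a term and 5 with no fold limit. Of the 2 from WG to WL, CPT1A in ULB was called under every alternative, and 1 call was left with DESeq2, RLE factors, a term for the share or the high-share libraries (6 with no fold limit). With the replicate block CPT1A in GOM was lost and CPT1B in MAD gained. In diet comparisons the replicate block joined different pigs and left out libraries without a same-numbered partner. Its counts there, for expression and for the index, therefore cannot tell whether a call holds. The 7 from NC to WL were all kept with DESeq2, RLE factors, no filter, a share term, the replicate block and the GC slope. Over the high-share libraries 5 of them were kept, CPT1A in GOM and CPT1B in RAD were lost, and ACADM and HADHB in GOM were gained. The 16 in NC became 13 with a share term, 2 over the high-share libraries, 11 with the replicate block and 12 to 16 with 1 NC ULB library left out, 12 without replicate 2. The 6 in WG became 13 with no fold limit, and 5 were called in WL with no fold limit. The replicate block kept all 6 in WG and gained ACADM from GOM to RAD. In WL it kept both calls and gained PDK4 from RAD to ULB. Both WL calls, of HADHB, were lost with a share term, the GC slope or the high-share libraries (0 calls), and the 1 call with the share term and the 1 with the GC slope was CPT2 from GOM to RAD. The 3 interactions became 5 with a share term, 0 with high-share libraries and 2 to 4 with 1 library left out. The 16 index calls between diets became 9 over gene bodies, 11 with the replicate block and 14 to 17 with 1 sample left out, and the 7 between depots 7 to 11 with 1 sample left out (11 without NC ULB replicate 7) and 34 with no difference limit. Those added without NC ULB replicate 7 were all of the shared bin of HADHA and HADHB, counted for each gene. The 65 correlations ranged from 58 to 71, and the 128 enhancer entries became 31 as super-enhancers. No value called in a comparison changed sign. The cause of these changes was not tested. Depth limits NC GOM most, with a median of 9262929 counts.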
